A study of Mus musculus with 18 samples.

Results

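The regions described here were PROMPTs of transcription start sites (TSSs) outside protein-coding genes. They were chosen as the rows of the deposited PROMPT table that had a baseMean of at least 1 and a symbol absent from the deposited table of coding genes. The baseMean is the authors' mean normalized count over all libraries, and it is referred to as the level. Of 32253 PROMPT regions in the table, 14144 had such a symbol, and 3134 of these were selected on their level. Another 5913 had a level above 0 and below 1, and 5097 were listed at 0. By their symbols, 2092 of the 3134 regions belonged to predicted genes (Gm and a number), 388 to RIKEN cDNA loci (ending in Rik), 370 to microRNA or small nucleolar RNA genes (starting Mir or Snor) and 284 to other genes.

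A PROMPT (promoter upstream transcript) is a short, unstable noncoding RNA that RNA polymerase II makes upstream of a TSS, running away from the gene on the opposite strand. Nuclear exosome decay removes most of these RNAs soon after synthesis, so steady-state RNA-seq rarely shows them, whereas transient transcriptome sequencing (TT-seq), which captures RNA labelled with 4-thiouridine (4sU) just before harvest, does. FACT, the histone chaperone made of SPT16 and SSRP1, takes apart and rebuilds nucleosomes as the polymerase passes. Many noncoding genes, among them long noncoding RNAs, microRNA hosts and small RNA genes, have TSSs of their own or lie inside other transcription units.

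The study asked how nascent transcription responds when SPT16 is lost from murine embryonic stem (ES) cells. TT-seq was run on 18 libraries, 3 for each of 6 conditions: untagged E14 cells and clones 1 and 2 of SPT16-AID cells, each given 3-indoleacetic acid (IAA), the auxin that triggers degradation of AID-tagged protein, or ethanol (EtOH, 0.1%) for 24 h. Every line, the untagged control included, carried osTIR1, the plant F-box protein on which the degron depends, and each SPT16-AID line was a single CRISPR clone with the tag on both alleles of Supt16h. Cells grew in serum and LIF with GSK and MEK inhibitors and were labelled with 4sU for 5 min. The labels give 500 nM IAA and 500 mM 4sU, whereas the methods give both in micromolar, and this was not resolved.

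The level is 1 number per region that averages control and SPT16-depleted libraries together. No table used here had a column per library, so the values below carry neither an SD nor an n, and neither clones nor EtOH and IAA libraries were compared. All comparisons between sets of regions are descriptions. The authors placed PROMPTs within 1 kb of a TSS, and every window was taken here as 1 kb long. The lengths that were counted are not given, so levels were set side by side without adjustment for length. The normalization was made per table: none of the 24 repeated low values of the PROMPT table occurred among the 27 of the gene table. Levels of genes and of PROMPTs were therefore never compared as amounts. A level of 1 stands for 18 normalized reads over all libraries, and a count of 18 has an exact Poisson 95% interval that spans levels of 0.593 to 1.58. At a level of 10 that interval was 8.59 to 11.6, and both intervals cover counting error only. The ES cell label was checked in the gene table, where the levels of Pou5f1, Sox2, Nanog, Zfp42, Esrrb and Tfcp2l1 ranged from 5985 to 72140, against 2.66 to 208 for the lineage markers Gata6, Sox17, Pax6, T, Cdx2 and Afp.

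The promoters of 6 regions are printed here because they represent the settings in which high levels were found. Promoter means the bases around the annotated start of the gene, and whether transcription begins there was not tested. Each covers 250 bases before and 50 bases after the annotated start, 5′ to 3′ on the gene's strand, in GRCm38, with capitals, on either strand, for the TATA box letters TATAAA, for the CAAT box letters CCAAT and for the Sp1 core letters GGGCGG. The PROMPT runs leftward from the start, on the other strand. Snhg7os at chr2:26640122-26640421 (plus strand) has the host gene Snhg7 on its PROMPT strand. Gm28872 at chr4:132269806-132270105 (plus strand) lies beside Rnu11, the gene of the U11 spliceosomal RNA. Gm22354 at chr14:52069050-52069349 (plus strand), annotated as a small nucleolar RNA, lies past the end of the coding gene Hnrnpc. The CpG-rich Platr23 promoter at chr1:136624601-136624900 (minus strand) faces the start of Zfp281. The other 2, 1700096K18Rik at chr5:25529763-25530062 (plus strand) and Lncenc1 at chr13:97434720-97435019 (plus strand), had no annotated gene on the PROMPT strand within the window. The Gm28872 and Gm22354 stretches held none of the 3 motifs, whereas the 1700096K18Rik and Platr23 stretches held 4 copies of GGGCGG each and the Lncenc1 stretch 2 of CCAAT.
Snhg7os: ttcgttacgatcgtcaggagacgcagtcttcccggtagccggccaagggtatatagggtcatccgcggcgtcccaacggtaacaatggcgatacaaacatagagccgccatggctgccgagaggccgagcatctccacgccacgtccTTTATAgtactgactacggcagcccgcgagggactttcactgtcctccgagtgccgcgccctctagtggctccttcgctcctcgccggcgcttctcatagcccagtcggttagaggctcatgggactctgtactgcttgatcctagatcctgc
Gm28872: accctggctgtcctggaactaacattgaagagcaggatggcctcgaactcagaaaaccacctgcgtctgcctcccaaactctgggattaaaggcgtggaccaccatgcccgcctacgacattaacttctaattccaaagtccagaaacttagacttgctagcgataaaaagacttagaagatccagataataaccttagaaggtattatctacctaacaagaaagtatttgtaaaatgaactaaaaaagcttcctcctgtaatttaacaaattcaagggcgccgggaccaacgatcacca
Gm22354: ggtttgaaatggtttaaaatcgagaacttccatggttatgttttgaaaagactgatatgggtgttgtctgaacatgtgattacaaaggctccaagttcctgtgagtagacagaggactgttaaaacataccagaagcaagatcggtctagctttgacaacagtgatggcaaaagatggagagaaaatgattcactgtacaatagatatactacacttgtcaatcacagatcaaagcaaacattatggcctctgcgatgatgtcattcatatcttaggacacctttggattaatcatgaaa
Platr23: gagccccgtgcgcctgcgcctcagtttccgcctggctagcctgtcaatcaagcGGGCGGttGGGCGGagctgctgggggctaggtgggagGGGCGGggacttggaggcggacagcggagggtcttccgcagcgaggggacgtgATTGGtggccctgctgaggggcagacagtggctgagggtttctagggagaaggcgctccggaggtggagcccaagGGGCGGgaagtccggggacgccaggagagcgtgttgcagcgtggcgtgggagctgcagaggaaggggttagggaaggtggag
1700096K18Rik: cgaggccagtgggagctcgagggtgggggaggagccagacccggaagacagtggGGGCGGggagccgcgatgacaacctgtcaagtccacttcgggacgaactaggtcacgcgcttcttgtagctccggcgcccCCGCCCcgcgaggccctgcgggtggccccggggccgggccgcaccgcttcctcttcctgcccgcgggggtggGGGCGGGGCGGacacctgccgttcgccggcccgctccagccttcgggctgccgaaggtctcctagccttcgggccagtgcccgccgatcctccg
Lncenc1: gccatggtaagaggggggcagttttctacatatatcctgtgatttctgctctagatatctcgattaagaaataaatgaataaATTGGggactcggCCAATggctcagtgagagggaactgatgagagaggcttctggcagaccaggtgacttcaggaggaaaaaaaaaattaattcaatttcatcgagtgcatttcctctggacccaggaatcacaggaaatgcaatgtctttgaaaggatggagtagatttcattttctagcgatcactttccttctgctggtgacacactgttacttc

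The mature sequences of microRNAs name the small RNA genes at whose starts PROMPTs were measured. They lie outside the PROMPT windows and were not themselves measured. RefSeq gave mature sequences for 264 of the 299 members whose symbol starts with Mir, 443 sequences with 416 different seeds (bases 2 to 8, in capitals below), so most of these genes shared no seed. Only 22 seeds were shared by more than 1 member, among them the let-7 seed, common to Mirlet7i (level 20.6), Mirlet7d (2.46) and Mirlet7g (1.03), and the seed of the miR-25 family, common to Mir92b (31.3), Mir25 (18.5) and Mir32 (1.03). Within each of these families the PROMPT levels of genes with an identical seed thus spread widely. The mature RNAs of Mir6338 and Mir6988, among the highest of these regions, are shown with those of both families.
miR-6338: cUGGUUUCucucauuugugcu
miR-6988-5p: gGGGUGGAgagcugaggccca
miR-6988-3p: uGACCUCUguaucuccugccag
let-7i-5p: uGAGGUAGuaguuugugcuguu
let-7d-5p: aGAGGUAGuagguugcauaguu
let-7g-5p: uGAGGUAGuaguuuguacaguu
miR-92b-3p: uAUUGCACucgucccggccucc
miR-25-3p: cAUUGCACuugucucggucuga
miR-32-5p: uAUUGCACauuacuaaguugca

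Most PROMPTs outside coding genes were weak. The median level of the 3134 regions was 3.96, with quartiles of 1.90 and 11.8, and 850 regions (27.1%) lay between 1 and 2. The 7741 PROMPTs of coding genes that met the same minimum had a median of 5.96 and quartiles of 2.44 and 17.0. A smaller share of TSSs outside the coding gene table met the minimum, 22.2% of 14144 against 42.7% of 18109 for coding genes. Levels of at least 10 were found for 875 of the regions (27.9%) and for 2837 coding-gene PROMPTs (36.6%). Levels of at least 100 were found for 104 regions and 191 coding-gene PROMPTs. Among PROMPTs at 1 or more these were 3.32% and 2.47%, but among all TSSs they were 0.735% outside the coding gene table and 1.05% of coding genes. The highest level was 26872 against 704, both in the mitochondrial genome. Regions outside coding genes made up 28.8% of all PROMPTs at 1 or more and held 45.0% of the summed level of the whole table. The mitochondrial genome and the ribosomal locus CT010467.1 supplied 50.3% of the regions' own sum, so the 45.0% does not describe the other regions.

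The types of symbol differed little in the middle of their ranges. Median levels were 3.66 for Gm genes, 4.81 for Rik loci, 4.09 for Mir and Snor genes and 5.22 for the other genes, and the quartiles of all 4 types overlapped. They differed more in how many of their TSSs met the minimum, which was 20.2% of 10379 for Gm genes, 25.8% of 1506 for Rik loci, 34.5% of 1073 for Mir and Snor genes and 23.9% of 1186 for the others. Only the last type, which holds the mitochondrial genes and CT010467.1, went above 1000.

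**Figure D1:**
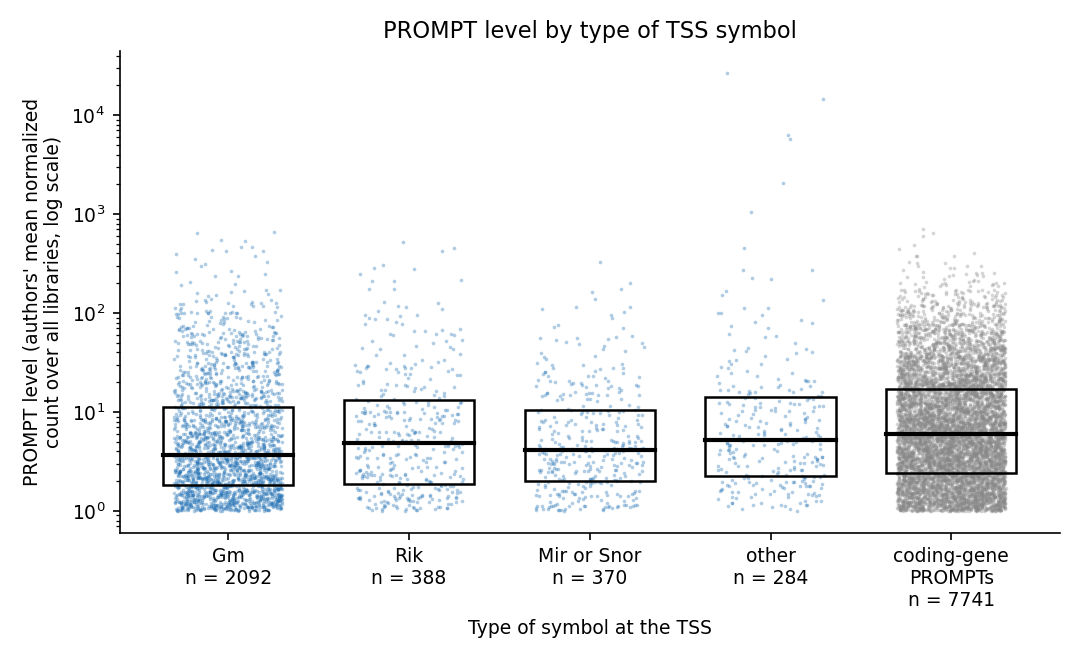
PROMPT level on a log scale for each type of symbol and for coding-gene PROMPTs at 1 or more, with 1 point per region, the box at the quartiles and the bold line at the median. Medians lie between 3.66 and 5.96, and only regions of the other type exceed 1000.

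A handful of regions carried much of the total. The 10 highest held 54.4% of the summed level of the 3134 regions, and the 7 regions of the mitochondrial genome alone held 45.0%. Without the mitochondrial genome the 10 highest held 20.3%, and without the ribosomal locus CT010467.1 as well they held 12.6%. The highest level, 26872, was that of mt-Tt, the gene of the mitochondrial threonine tRNA, whose window lies antisense to mt-Cytb, which encodes cytochrome b. Next were mt-Tw (tryptophan tRNA, 14556), antisense to mt-Nd2, and mt-Ti (isoleucine tRNA, 6366), antisense to mt-Nd1, 2 genes of respiratory complex I. The mt-Tp window (proline tRNA, 1062) lies on the other strand, 135 bp past the end of mt-Cytb. The remaining 3 mitochondrial regions were far lower, mt-Rnr2 (the large ribosomal RNA) at 15.3, mt-Tl1 (a leucine tRNA) at 6.43 and mt-Th (histidine tRNA) at 4.25, and 4 of the 11 mitochondrial tRNA rows were listed at 0. Mitochondrial DNA is read from both strands as long transcripts that are cut at the tRNAs and it has no nucleosomes, so these windows are PROMPTs by the rule of position only.

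Outside mitochondria the highest level was 5803, at CT010467.1, a ribosomal RNA locus on chromosome 17 whose window begins 40 bp past the end of Gm42418 on the same strand. Snhg7os, the antisense partner of the small nucleolar RNA host gene Snhg7, followed at 2060.0, and Snhg7 itself overlaps that window on the PROMPT strand. These and mt-Tt, mt-Tw, mt-Ti and mt-Tp were the 6 regions above the highest PROMPT of a coding gene, 704, which is itself mitochondrial. The other 4 of the 10 highest were Gm22354 (663), Gm5922 (648), Gm16618 (546) and Gm28872 (532). Gm22354 and Gm5922 also exceeded 645.6, the highest level among placed nuclear PROMPTs of coding genes. Each of these 4 had an annotated gene on the PROMPT strand in or shortly before the window. The Gm22354 window lies 4078 bp past the end of Hnrnpc, which encodes a pre-mRNA binding protein, and the Gm5922 window 3961 bp past the end of Rpsa, a ribosomal protein gene. The Gm16618 window lies inside Dvl3, a Dishevelled gene of Wnt signalling, and the Gm28872 window begins 24 bp past Rnu11.

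Among Gm genes the fifth highest was Gm20703 (468), on chromosome 17, whose CpG-rich promoter lies 9542 bp past the end of Tgif1, a homeobox repressor gene. The 5 highest Rik loci were 4933438K21Rik (521), 4930444E06Rik (454), 1700096K18Rik (425), 4833413E03Rik (309) and 1700039I01Rik (283). The first 4 had no gene on the PROMPT strand in the window or within 5 kb before it that codes for protein, and the fifth lay inside Zdbf2, an imprinted gene. The 5 highest Mir or Snor regions were Mir6338 (326), Mir5107 (201), Mir6972 (175), Mir6988 (161) and Mir150 (137). The first 4 lay past the end of a coding gene, in the same order Smtnl2, Tcof1, Nelfe and Mrpl49, at distances of 408 to 2289 bp. No region had any of the 10 highest coding genes as its neighbour on the PROMPT strand.

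The position of annotated genes was then set against the level. Of the 3134 regions, 2994 (95.5%) were placed by a unique name on GENCODE vM21, and the 140 others had a median level of 3.97. Of those placed, 287 windows overlapped a coding gene on the PROMPT strand, 216 overlapped a noncoding gene only, 265 lay within 5 kb past the end of a coding gene, 7 were mitochondrial and 2219 (74.1%) had no gene on that strand. Leaving mitochondria aside, 25.7% of the regions had a gene in or next to the window, and their median level was 7.43 against 3.34 for those without. The class past the end of a coding gene had the highest nuclear median, 11.8, with quartiles of 4.62 and 35.5. Windows that overlapped a coding gene had a median of 5.40 and those that overlapped a noncoding gene 4.89.

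The share of TSSs that met the minimum rests on the same levels and was 63.7% of 416 TSSs placed past the end of a coding gene, 37.2% of 771 overlapping one, 25.7% of 839 overlapping a noncoding gene and 19.4% of 11464 with no gene on the PROMPT strand. Of the placed coding-gene PROMPTs 73.9% had no gene on that strand, close to the 74.1% above, but 4.69% lay past the end of another coding gene, against 8.85% of the regions, and 11.7% overlapped a noncoding gene only, against 7.21%. In the class without a gene their median was 5.86 rather than 3.34. Past the end of another coding gene their median was 16.8 (n = 358), also the highest of their nuclear classes.

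**Figure D2:**
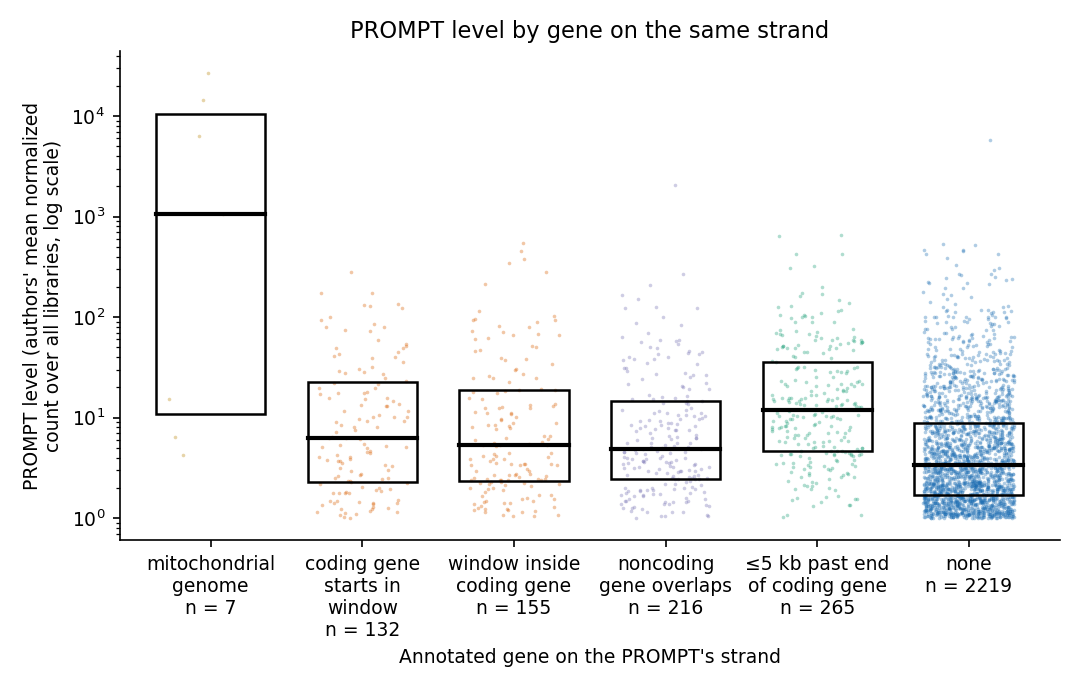
PROMPT level on a log scale for the placed regions outside coding genes, by the annotated gene on the PROMPT's strand, with 1 point per region, the box at the quartiles and the bold line at the median. The median is 11.8 within 5 kb past the end of a coding gene and 3.34 with no gene on that strand.

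Past the end of coding genes the median level of the selected regions was lower in each farther interval. It was 30.0 for the 46 regions within 1 kb, 13.5 for 58 at 1 to 2 kb, 9.29 for 59 at 2 to 3 kb, 8.56 for 102 at 3 to 5 kb, 6.40 for 176 at 5 to 10 kb and 4.15 for 268 at 10 to 20 kb. The 1775 regions with no coding gene ending within 20 kb before the window had a median of 3.06. Counted over all TSSs of the table, including those below the minimum, the medians were 6.97, 4.87, 3.42, 4.37, 1.40 and 0.753 in the same intervals and 0.0610 with no such gene, so the interval of 3 to 5 kb stood above that of 2 to 3 kb. The share that met the minimum was between 59.7% and 68.0% in the intervals up to 5 kb, highest at 3 to 5 kb, and 45.6% at 10 to 20 kb. The median level of the coding genes was 2231, 1582, 1322, 1343, 2106 and 2279 in the same intervals. It was thus also lower over the first 3 intervals, and its part in the PROMPT levels was not tested. The highest regions within 1 kb were Gm47639 (422, 318 bp past Ppp4r3a, which encodes a phosphatase 4 subunit), Mir6338 (326) and Gm25735 (311, 634 bp past Cd2bp2).

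**Figure D3:**
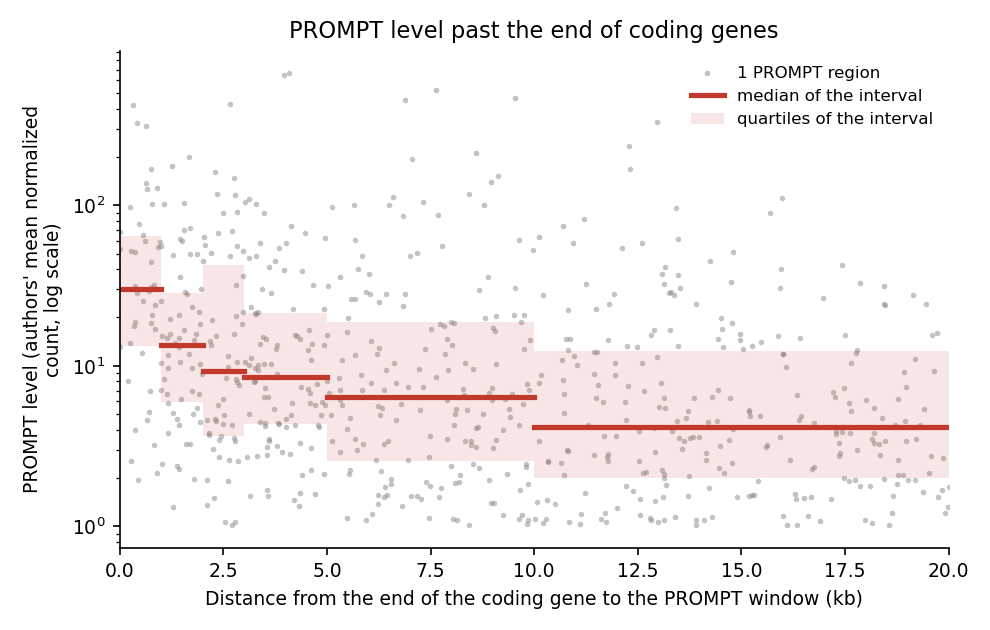
PROMPT level on a log scale against the distance in kb from the end of the nearest coding gene on the PROMPT strand to the window, for windows that overlap no gene on that strand. Each point is 1 region, and the red lines and bands give the median and quartiles of each interval, from 30.0 within 1 kb to 4.15 at 10 to 20 kb.

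Within 5 kb past the end, PROMPT levels also followed the level of the gene that ended there. Across 263 such regions Spearman's rho between the PROMPT level and the gene's level per kb of its length was 0.49, and it was 0.63 without the windows that share bases with another window of the table. Regions were read in the same libraries and are not independent, so rho is given as a description. By terciles of the gene's level per kb, the PROMPT medians were 5.06 (n = 88), 16.6 (n = 87) and 27.0 (n = 88). Hnrnpc, Rpsa and Snrpe, the last a gene of a spliceosomal core protein, had regions of 663, 648 and 428 (Gm23939) at 2649 to 4078 bp past their ends. A gene that began in the window gave another picture. For 130 regions that faced a coding TSS head to head rho was 0.0536, and for 149 windows inside a coding gene it was 0.20. Among 777 regions with a coding gene on the opposite strand only, rho with the level of that gene was -0.07.

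**Figure D4:**
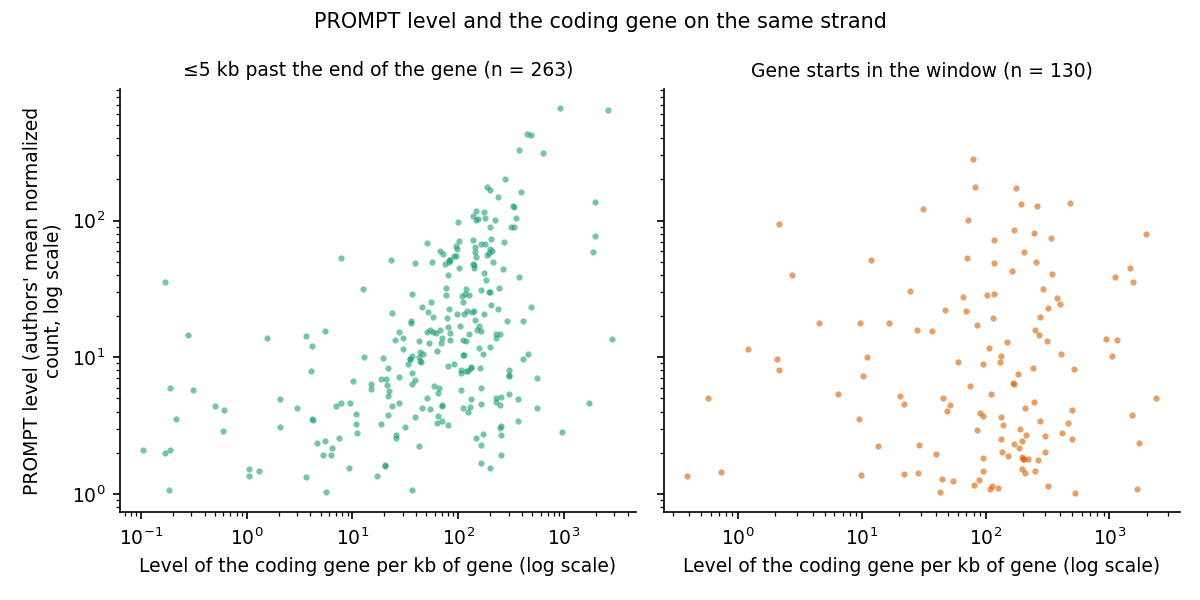
PROMPT level against the level of the coding gene on the same strand per kb of gene, both the authors' mean normalized counts on log scales. The left panel holds 263 regions within 5 kb past the end of the gene (rho 0.49) and the right panel 130 regions with the gene's start in the window (rho 0.0536).

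Head-to-head promoters were the setting in which a PROMPT window held the start of a coding gene on its strand. Such a window covers at most the first 1 kb of that gene, and often less. Of 304 such TSSs outside the coding gene table, 132 were at 1 or more, with a median of 6.33 and a highest level of 281 at 4930434O05Rik, which faces St8sia1, a ganglioside synthesis gene. Among 175 of the TSSs that faced a gene with a level of at least 1000, 81 (46.3%) were below 1 and 13 (7.43%) were listed at 0, lower shares than over all 304, of which 172 (56.6%) were below 1 and 40 (13.2%) at 0. High gene levels could still be paired with no signal in the window. Snhg1, for example, was listed at 0 although its window overlaps the start of Slc3a2 (gene level 10586), and Airn had a level of 0.0266, the lowest value above 0, although its window lies inside Igf2r (6942). The deposited description leaves out windows near other coding transcripts. The methods list featureCounts options for strand and read pairs but none for reads that overlap more than 1 window. What this did to the levels of overlapping windows was not tested.

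The 2219 regions with no gene on the PROMPT strand included 50 of the 104 regions at 100 or more. For 801 of them the opposite strand lay in a coding gene, and their median was 2.75, against 3.70 for the 1418 with no coding gene on either strand. A noncoding gene ended within 5 kb before 195 of the windows, with a median of 3.73, and 2024 had no gene of either kind in the window or within that distance, with a median of 3.30. The highest of the last group was 4933438K21Rik (521), followed by 4930444E06Rik (454), Gm5493 (429) and Gm33994 (391). The window of 4933438K21Rik lies 7638 bp past the end of Rex2 and that of 4930444E06Rik 6883 bp past the end of Snx5. No coding gene ended within 20 kb before the windows of Gm5493 and Gm33994. Gm43804 (461), the highest with a coding gene on the opposite strand, lies in Lhfp. High levels also occurred where the annotation used here had nothing on the PROMPT strand in the window or within 5 kb before it.

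Genes whose symbol starts with Mir or Snor stood mostly inside other genes. The window of 229 of 296 placed Mir regions (77.4%) and of 52 of 70 Snor regions (74.3%) lay on the opposite strand of a coding gene, the strand that the small RNA shares with its host. The share was 30.4% for Gm genes and 13.3% for Rik loci. Past the end of a coding gene on the PROMPT strand lay 64 Mir and 26 Snor regions, some of them also counted above, 24.6% of the placed regions of this type against 7.12% of Gm genes. The median level was 3.69 for 299 Mir regions and 6.37 for 71 Snor regions. By symbol, more Snor genes met the minimum, 57.3% of 124 against 31.5% of 949 Mir genes. By annotated class, which takes in many Gm symbols, the order was the other way. The minimum was met by 20.5% of 1202 small nucleolar RNA TSSs and 27.3% of 1677 microRNA TSSs. The highest region with a Snor symbol was Snord82 at 69.8, far under Mir6338. Among all regions annotated as small nucleolar RNAs the highest was Gm22354 (663), and among those annotated as microRNAs Gm44390 (381).

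Known noncoding RNA genes were looked up by a list. Of 75 listed symbols found in the table, 71 were outside the coding gene table, 40 of them were at 1 or more, 23 were between 0 and 1 and 8 were listed at 0. The median of the 40 was 12.0, against 3.96 over all 3134 regions. Beside Snhg7os the highest were Lncenc1 (224), an RNA known from naive pluripotency, Platr8 (167), Hotair (152), the antisense RNA of the HoxC cluster, Platr23 (135), Platr19 (112) and Platr6 (99.4). The region of Mir290a, the first gene of the microRNA cluster that dominates ES cells, stood at 53.0 and began 18 bp past the end of Nlrp12. Malat1, a nuclear RNA among the most abundant of all, had a PROMPT of 19.4, Terc, the RNA of telomerase, 12.3 and Tsix, the antisense of Xist, 4.13. Malat1 and Terc lay above 11.8, the upper quartile of all 3134 regions. Regions just under the minimum included H19 at 0.972 and Neat1 at 0.556, and Sox2ot was at 0.0610.

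The Platr genes were named for association with pluripotency. Of 24 Platr symbols outside the coding gene table, 16 were at 1 or more, beside 22.2% of all symbols outside it. Their median was 15.3 and their range 1.87 to 167. For 14 of the 16 no gene lay on the PROMPT strand, beside 74.1% of all placed regions. A CpG-rich promoter was found for 1 of the 16, Platr23, which faces Zfp281, the gene of a zinc finger factor of ES cells. The share was 12.7% over all regions and 7.98% where no gene lay on the PROMPT strand. A count of 1 in 16 does not set the Platr genes apart from these. Of 12 Snhg symbols outside the table, 7 were at 1 or more, Snhg7os included, with a median of 9.06, and 3 were listed at 0. Most Snhg symbols name host genes of small nucleolar RNAs, and 3 of the 6 placed members had CpG-rich promoters.

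The promoter sequence, which had no part in the choice of regions, set them apart from coding-gene PROMPTs. A promoter counted as CpG-rich when the 300 bases around the start had a GC content of at least 50% and a ratio of observed to expected CpG of at least 0.6. The annotated start was used for every region, also for those annotated as microRNA (457) or small nucleolar RNA (247) genes. Most of the Mir and Snor regions lie inside other genes, so such a start need not be a TSS. CpG-rich promoters were found for 379 of 2993 regions (12.7%, exact 95% interval 11.5 to 13.9) and for 4235 of 7625 coding-gene PROMPTs (55.5%). GGGCGG, the core of the site bound by Sp1 family factors, was found on either strand in 15.8% of the regions and 55.5% of the coding set, beside 27.5% of all 31274 promoters placed from the table. TATAAA, the TATA box letters, was found in 16.0% of the regions, 8.59% of the coding set and 15.8% of all. CCAAT differed least, at 37.0%, 38.5% and 39.9%. GGGCGG holds a CpG itself, so its share is not independent of the CpG-rich share. The median GC content was 48.0% in the regions and 58.3% in the coding set, and the motif shares were not adjusted for it.

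The share of CpG-rich promoters was higher at higher PROMPT levels. Of all placed TSSs outside the coding gene table the share was 2.57% at a level of 0, 5.78% between 0 and 1, 10.8% from 1 to 10, 16.8% from 10 to 100 and 23.0% (23 of 100, interval 15.2 to 32.5) at 100 or more. For coding genes it was 11.4% at 0, 60.4% from 10 to 100 and 54.8% at 100 or more. Within the regions studied, CpG-rich promoters had a median level of 5.97 and the others 3.77. The order was the other way past the end of a coding gene (10.3 against 12.3) and where a coding gene overlapped the window on the PROMPT strand (5.32 against 6.19). Within the latter it was the other way for windows inside the gene (4.05 against 6.10). It was not where the gene started in the window (6.46 for CpG-rich promoters against 6.19). The share of CpG-rich promoters was highest, 72.0% of 132, where a coding gene started in the window, and 7.98% of 2218 where no gene lay on the PROMPT strand. By annotated class it was 74.1% for 27 bidirectional promoter RNAs, 37.2% for 145 processed transcripts, 24.1% for 228 antisense RNAs, 10.9% for 810 lincRNAs and 7.36% for 231 small nuclear RNAs.

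**Figure D5:**
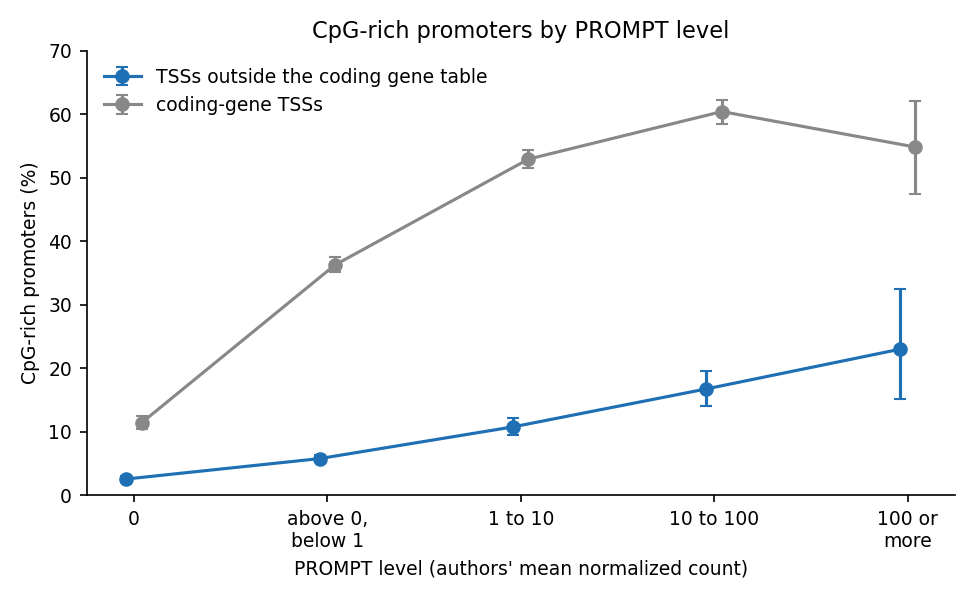
Share of CpG-rich promoters in percent by PROMPT level, for TSSs outside the coding gene table and for coding-gene TSSs, with exact 95% binomial intervals. The share outside coding genes goes from 2.57% at 0 to 23.0% at 100 or more and stays under that of coding genes in each interval.

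At the threshold itself the choice of regions was arbitrary. Gm49293, Gm37733 and 1700021F02Rik, each at 1.00, were the lowest regions kept, and Gm25775 at 0.9997, 9230111E07Rik at 0.9987 and Gm22235 at 0.9967 were the highest left out. Windows of 229 placed regions shared bases with another window of the table on the same strand, so reads there could belong to more than 1 TSS.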

How the data were processed

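TT-seq was run on 18 libraries of E14 ES cells, and 2 of the 4 deposited tables, those of PROMPTs and of coding genes, were used. Paired-end reads were trimmed (Trim Galore), mapped to mm10 keeping unique alignments (STAR) and assigned by strand (featureCounts) by the authors, over windows within 1 kb upstream of and antisense to TSSs of Gencode vM25, leaving out windows near other coding transcripts. The deposited baseMean is a signal, the mean of the authors' counts after division by DESeq2 size factors, and no filter on expression was applied. The submitters' processing notes also name HTSeq and deepTools, without versions. The other 4 value columns of each table (log2 fold change, its standard error, p-value and adjusted p-value) hold the authors' own comparison and were not used. There were 0 columns of single libraries to set aside, so the planned edgeR comparison of IAA and EtOH libraries was not made, and the depth per library is unknown apart from low baseMean values. Repeated low values were searched up to 0.2, keeping those with at least 0.06 of the rows of the most frequent value.

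The members and lists were chosen with earlier results of these data known. Symbols were placed by a unique name on GENCODE vM21 (GRCm38), and windows of 1000 bp were set against GENCODE and RefSeq genes by strand, in the order coding overlap, noncoding overlap, end of a coding gene within 5000 bp before the window, none. A search for earlier ends reached 20 kb. Placement was tested on simulated data. Promoter bases (250 before to 50 after the start) came from the RefSeq GRCm38.p6 genome, and mature microRNAs from RefSeq. Named regions were the 10 highest, the 5 highest of each name type, known noncoding RNA genes, those at the minimum, and neighbours of the 10 highest coding genes; other regions with the highest level of a class were added once values were known. Software was matplotlib 3.10.9, numpy 2.4.6, scipy 1.17.1 and pandas 2.3.3 under Python 3.11.15.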

Additional observations from a re-analysis of the deposited data

How the results depend on the processing

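No paired analysis was possible because the tables used here hold no column per library, and for the same reason no replicate was left out. Types from the reference annotation in place of name types gave other categories and are reported as annotated classes only. The minimum level decided most values. With a minimum just above 0 the regions numbered 9047 (38.9% of all PROMPTs, median 0.416), with 2 they were 26.7% with a median of 6.64, and with 10 they numbered 875 (23.6%, median 25.3). At a minimum of 10 the types numbered 557 Gm, 120 Rik, 101 Mir or Snor and 97 other regions, with medians of 26.2, 27.7, 20.7 and 21.2, so their order changed. Leaving out symbols that the reference lists as coding genes or their synonyms gave 27.9%, while ignoring case or counting each symbol once changed nothing. The share held by the 10 highest regions was 40.1% without mt-Tt and 60.4% without windows overlapping a gene on the PROMPT strand. The following alternatives were chosen after seeing the data, except the first 2. The share of regions with a gene in or next to the window was 28.9% for 2 kb windows, 18.5% for coding genes only (median 8.51), 20.3% for genes ending within 2 kb, 31.6% for those within 10 kb and 18.6% for GENCODE genes only. In each of these the regions with a gene had the higher median. The 10 highest held 20.3% without the mitochondrial genome and 12.6% without CT010467.1 as well. The rank correlation past the end of coding genes was 0.63 without windows sharing bases. CpG-rich promoters made up 9.69% with limits of 55% and 0.65, and 15.5% by the CpG ratio alone. Of 53 alternative values 30 moved and 23 did not. At a level near 1 counting error limits the order of single regions.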

Other observations

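Strong PROMPTs outside coding genes sometimes lay in a row on one strand. Of 96 nuclear regions at 100 or more that were placed, 9 fell into 4 runs in which neighbouring windows were at most 50 kb apart on the same strand. The longest held 3 regions over 46.2 kb of chromosome 1, Gm33994 (391), 4933409D19Rik (217) and Platr23 (135), and the last of them overlaps the start of Zfp281. Another run on chromosome 1 held 1700039I01Rik (283) and Gm11608 (173), both at Zdbf2. Gm13663 (207) and Gm13662 (164) both overlap the noncoding gene Gm17250, opposite the integrin gene Itga6. Gm11292 (118) and Gm44390 (381) lie in a histone gene cluster on chromosome 13.

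Gene segments of antigen receptors, which lymphocytes rearrange and ES cells do not, were among the regions. Joining segments of the T-cell receptor alpha locus on chromosome 14 met the minimum in 34 of 51 cases, with levels of 1.10 to 13.5, and 18 of these 34 windows shared bases with another window. Those of the beta and gamma loci met it in 0 of 13 and 0 of 4 cases, and immunoglobulin joining segments in 2 of 11. T-cell receptor variable segments did so in 11 of 128 cases and immunoglobulin variable segments in 7 of 216. Trav18 (221) was the highest of them by a wide margin, with Igkv12-89 next at 39.9.

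Not every symbol outside the coding gene table was noncoding. A reference table listed 100 of the 3134 regions (3.19%) as coding genes or their synonyms, with a median level of 3.34, and 69 were annotated as coding in GENCODE vM21, the highest being Znrd1as at 85.0. The minimum was met by 18.4% of 4403 lincRNA TSSs and by 41.3% of 552 TSSs of antisense RNAs.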
